A study of Homo sapiens with 14 samples.

Results

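The genes described here make, store, take back and break down the catecholamines dopamine and noradrenaline. They are TH, DDC and DBH (synthesis), GCH1 and CYB561 (supply of cofactors), SLC18A1 and SLC18A2 (vesicle loading), SLC6A2 (reuptake) and MAOA (breakdown). They were taken by gene symbol from the deposited count tables, as 9 of the 19923 genes listed there, and all 9 had enough counts to be tested in both batches.

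The established, MYCN-amplified neuroblastoma line SK-N-BE2 was profiled by RNA-seq in 14 libraries that form 7 groups of 2. The cells of batch 1 carried the genotype label WT and received H2O (the vehicle) or CoCl2 at 10 µM or 50 µM. CoCl2 is a cobalt salt widely used to mimic hypoxia. In batch 2, WT cells stood beside cells labelled TET2KO 1, 2 and 3, where TET2 is the gene of a DNA demethylation enzyme. All cells were grown in RPMI1640 medium with serum. The labels do not say how long CoCl2 was given, how the knockouts were made, whether each knockout number is a single clone, or whether replicates were separate cultures, so p-values measure the spread between these libraries only.

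Catecholamine synthesis starts from tyrosine. TH, tyrosine hydroxylase, makes L-DOPA in the rate-limiting step and needs tetrahydrobiopterin, which GCH1 begins to make from GTP. DDC, a vitamin B6 enzyme, turns L-DOPA into dopamine in the cytosol, the vesicular transporters SLC18A1 (VMAT1) and SLC18A2 (VMAT2) move it into vesicles, and there the copper enzyme DBH makes noradrenaline with electrons from ascorbate that CYB561 passes across the vesicle membrane. SLC6A2, the noradrenaline transporter, brings released noradrenaline back into the cell, and MAOA, monoamine oxidase A of the outer mitochondrial membrane, oxidises what stays in the cytosol. Neuroblastoma arises from the sympathoadrenal lineage, and its catecholamine breakdown products in urine are used in diagnosis.

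The promoters of DBH and SLC18A2 are shown because these members sat at opposite ends of the response to CoCl2: DBH passed the test at neither dose and SLC18A2 had the largest change at both. Of the 9 genes, 5 (DDC, DBH, SLC18A2, CYB561 and MAOA) matched the RefSeq promoter table of build GRCh38.p14. Both sequences run 5′ to 3′ on the plus strand and stop at the base before the first counted exon, DBH at chr9:133636113-133636362 and SLC18A2 at chr10:117240864-117241092. Capitals mark ATTA, the core letters read by homeodomain factors such as PHOX2A, in DBH, and TGACGTCA, the cyclic AMP response element, in SLC18A2.
DBH: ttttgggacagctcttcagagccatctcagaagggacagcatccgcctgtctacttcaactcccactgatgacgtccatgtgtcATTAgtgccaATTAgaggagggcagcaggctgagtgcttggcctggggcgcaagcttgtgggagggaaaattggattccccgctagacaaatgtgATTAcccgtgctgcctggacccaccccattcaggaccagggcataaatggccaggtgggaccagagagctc
SLC18A2: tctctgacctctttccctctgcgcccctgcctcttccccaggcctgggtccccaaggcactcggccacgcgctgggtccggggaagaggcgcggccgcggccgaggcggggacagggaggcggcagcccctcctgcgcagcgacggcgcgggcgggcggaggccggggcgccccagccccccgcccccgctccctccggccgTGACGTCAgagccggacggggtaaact

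Motifs were searched on both strands in the first 250 bases of each promoter window of the table. ATTA occurred 3 times in the DBH promoter, with first bases 166, 156 and 71 bases before the exon, and was present in 47.4% of the 35116 promoters of the table. TGACGTCA occurred once in the SLC18A2 promoter, 27 bases before the exon, and was present in 1.65% of all promoters. The printed SLC18A2 stretch held 28 CpG dinucleotides. Its 250-base window in the table runs 21 bases into the first counted exon and held 33, a count reached by 8.15% of promoters, while DBH held 5, a count reached by 65.7%. ACGTG, a core of the element bound by hypoxia-inducible factors, was found in neither promoter, and the related GCGTG was found once in SLC18A2. They were present in 18.5% and 32.2% of all promoters. These matches describe letters, not binding.

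Libraries of batch 1 held 31214128 to 39540111 counts, and those of batch 2 held 52095024 to 59263320, mostly single reads rather than pairs. Levels are CPM, counts scaled to the TMM-adjusted library total. Log2 fold changes (log2FC) and adjusted p come from the quasi-likelihood test of edgeR, adjusted by Benjamini-Hochberg. A gene is called at an adjusted p under 0.05, and values after ± are SD with n = 2. Of 9 sympathoadrenal markers, 8 were tested in both batches. PHOX2A, a factor of the lineage, was at 341 CPM in H2O and 390 CPM in WT. TET2 mRNA, examined as a check of the labels, averaged 67.8 CPM in WT (SD 4.3) and 78.5 CPM, 89.2 CPM and 71.8 CPM in TET2KO 1, 2 and 3 (SD 2.71, 2.67 and 5.08). None of the labelled knockouts averaged less of it than WT. TET2 was called higher in TET2KO 1 (log2FC 0.21, adjusted p 0.000664) and TET2KO 2 (0.40, adjusted p 3.86e-12), and not in TET2KO 3 (0.08, adjusted p 0.301). Directions given for these groups depend on the labels alone.

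The levels of the 9 genes spanned a wide range in untreated cells. In H2O, on the scale of CPM per kilobase of counted exon, DDC led at 117 ± 0.0773, followed by TH at 46.7 ± 0.779, SLC6A2 at 38.2 ± 0.777, CYB561 at 36.8 ± 0.137 and DBH at 33.9 ± 0.0164. GCH1 was at 27.6 ± 0.325 and SLC18A1 at 23.4 ± 0.701. SLC18A2, per kilobase that no other counted gene shares, was at 1.68 ± 0.0116, and MAOA was last at 1.46 ± 0.106. The libraries of neighbouring genes in this order did not overlap. Per kilobase of all its exon bases, shared ones included, SLC18A2 was at 0.803 ± 0.00555, below MAOA. Which gene came last therefore depends on the length used for SLC18A2.

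In WT the order was different. TH led at 160 ± 5.20 CPM per kilobase, then CYB561 at 146 ± 0.572, DDC at 101 ± 2.03, DBH at 89.6 ± 0.600 and SLC6A2 at 51.1 ± 1.02. GCH1 at 12.6 ± 0.587 and SLC18A1 at 12.3 ± 0.654 overlapped and did not differ beyond their spread. SLC18A2 was at 2.95 ± 0.0365 per unshared kilobase and MAOA at 0.702 ± 0.0109 per kilobase. H2O and WT both carry the WT genotype label but lie in different batches, with counts made by different program versions, so the effects of batch and of culture cannot be told apart, and no test was made.

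**Figure D1:**
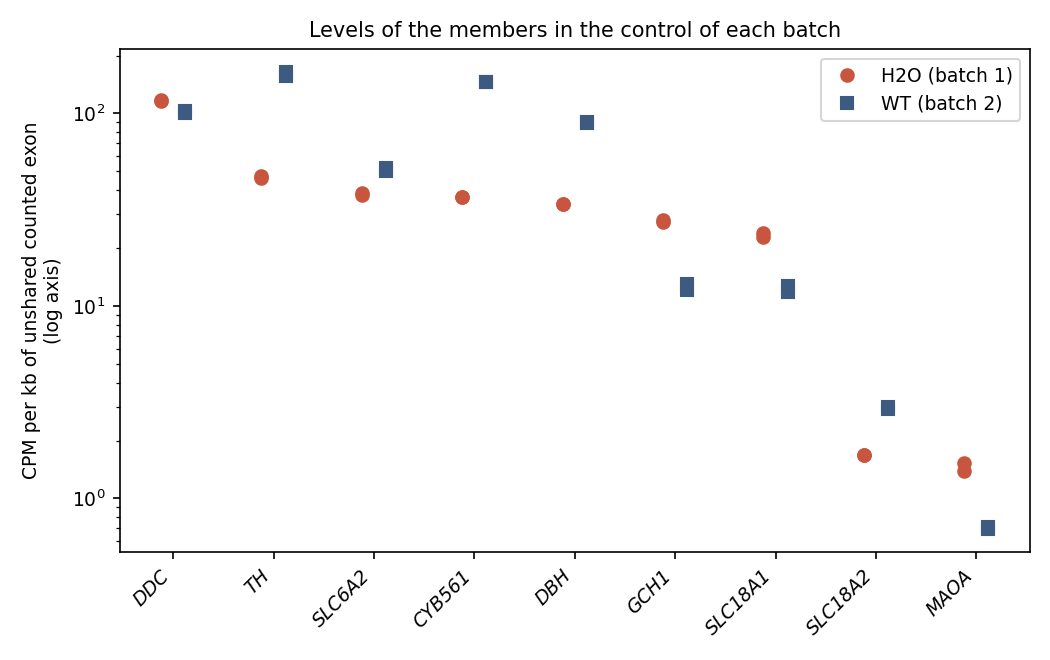
Level of the 9 genes in the 2 controls, as CPM per kilobase of unshared counted exon on a log axis, 1 point per library. SLC18A2 and MAOA lie lowest in both controls. TH, CYB561, DBH, SLC6A2 and SLC18A2 are placed higher in WT than in H2O, and DDC, GCH1, SLC18A1 and MAOA lower.

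At 50 µM CoCl2 the genes of the pathway moved apart. SLC18A2 fell by 62.5% and GCH1 fell by 43.7%, SLC18A1 rose by 35.8%, and the 3 synthesis enzymes differed from H2O by 13.5% or less. In all, 7 of the 9 genes were called (TH, DDC and SLC18A1 higher, GCH1, CYB561, SLC18A2 and SLC6A2 lower), where 61.4% of all tested genes were called (30.4% higher, 31.1% lower). The median log2FC of the 9 genes was 0.04, against 0.002 for all tested genes. At 10 µM, 4 were called (TH higher, GCH1, SLC18A2 and SLC6A2 lower), where 22.7% of all tested genes were called (11.6% higher, 11.1% lower), and the medians were -0.03 and -0.0007. Both doses were compared with the same H2O libraries. DESeq2 called 2 of the 9 at 10 µM.

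TH was measured at 153 and 150 CPM in H2O, at 164 and 159 CPM at 10 µM, and at 159 and 164 CPM at 50 µM. Every CoCl2 library lay above both H2O libraries, and the 2 doses overlapped. The log2FC was 0.09 at both doses (SE 0.02; adjusted p 0.00126 at 10 µM and 0.000316 at 50 µM), and 0.001 between the doses, with a 95% interval of -0.05 to 0.05 (adjusted p 0.976). Both TH calls depended on the fit. The one at 10 µM was lost in DESeq2 (adjusted p 0.0555) and without H2O replicate 2 (0.0599) or 10 µM replicate 1 (0.1), and in a fit of all 14 libraries both were lost (0.184 at 10 µM, 0.0605 at 50 µM).

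DDC stood at 360 and 360 CPM in H2O and at 366 and 362 CPM at 10 µM. At 50 µM it reached 406 and 411 CPM. Only the 50 µM libraries stood clearly apart. The log2FC was 0.02 at 10 µM (adjusted p 0.605) and 0.18 at 50 µM (SE 0.02, adjusted p 3.02e-18), and DDC differed between the doses by 0.17 (adjusted p 1.17e-15).

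DBH gave 93.3 and 93.2 CPM in H2O, 92.0 and 92.5 CPM at 10 µM and 95.3 and 96.9 CPM at 50 µM. The 50 µM libraries were the highest, by a few percent. The log2FC was -0.02 at 10 µM (95% interval -0.07 to 0.04, adjusted p 0.762) and 0.04 at 50 µM (95% interval -0.01 to 0.10, adjusted p 0.176). DBH was therefore not called at either dose, nor between them (0.06, adjusted p 0.0776).

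GCH1, the entry enzyme of tetrahydrobiopterin synthesis, fell with dose. It was at 80.02 and 81.4 CPM in H2O, 70.5 and 73.3 CPM at 10 µM and 44.5 and 46.3 CPM at 50 µM. The 3 groups did not overlap. The log2FC was -0.17 (SE 0.03, adjusted p 7.62e-06) at 10 µM and -0.83 (SE 0.04, adjusted p 4.06e-53) at 50 µM, and the direct difference between the doses was -0.66 (adjusted p 9.71e-40). At 50 µM, 6.81% of tested genes had a larger absolute change.

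CYB561 was at 194 and 196 CPM in H2O, 192 and 190 CPM at 10 µM and 179 and 184 CPM at 50 µM. The groups followed each other downward without overlap, in small steps. The log2FC was -0.03 at 10 µM (adjusted p 0.368) and -0.10 at 50 µM (SE 0.02, adjusted p 3.62e-05). The difference between the doses was -0.07 (adjusted p 0.00468), a call lost without 10 µM replicate 1 (0.0574) or 50 µM replicate 1 (0.0823).

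The vesicular transporters moved in opposite directions at 50 µM. SLC18A1, known from chromaffin cells, was at 93.5 and 89.6 CPM in H2O, 94.0 and 92.5 CPM at 10 µM and 127 and 122 CPM at 50 µM. The first pair of groups overlapped and the 50 µM libraries were well above both. The log2FC was 0.03 at 10 µM (adjusted p 0.570) and 0.44 at 50 µM (SE 0.03, adjusted p 1.34e-33).

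SLC18A2, known from neurons, was counted 129 and 132 times in H2O, 75 and 81 times at 10 µM and 34 and 49 times at 50 µM. These counts correspond to 3.30 and 3.33, 2.14 and 2.08, and 1.09 and 1.37 CPM. The 3 groups descended without overlap. The log2FC was -0.65 (SE 0.15, adjusted p 0.000466) at 10 µM and -1.42 (95% interval -1.77 to -1.06, adjusted p 3.04e-12) at 50 µM, and -0.77 (adjusted p 0.000717) between the doses. DESeq2 did not call the 10 µM change (adjusted p 0.0831). Of all tested genes, 2.71% at 10 µM and 2.02% at 50 µM had a larger absolute change.

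SLC18A2 counts come from part of the gene. Of its counted exon, 2157 bases (52.3%) are shared with PDZD8 on the opposite strand, and reads in shared bases were assigned to neither gene. PDZD8 itself was not called against the control in either CoCl2 group or in any labelled knockout, with log2FC of -0.01 to 0.07 and adjusted p of 0.114 to 0.893. The ratio of SLC18A1 to SLC18A2, both per unshared kilobase, was 14.3 and 13.6 in H2O, 22.2 and 22.3 at 10 µM and 58.5 and 44.9 at 50 µM, so SLC18A1 was the more abundant transporter throughout and the gap widened with dose.

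**Figure D2:**
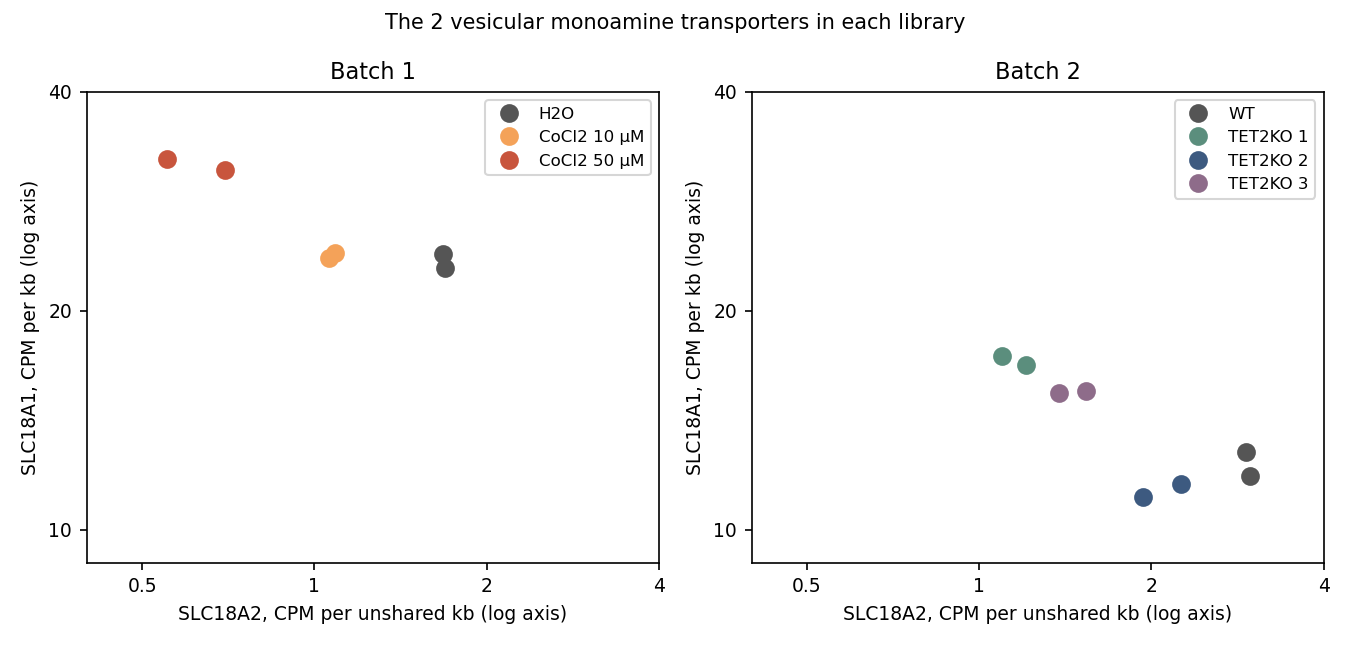
SLC18A1 against SLC18A2 in each library of batch 1 (left) and batch 2 (right), both in CPM per unshared kilobase on log axes. The 50 µM libraries lie at the upper left, with SLC18A2 at 0.553 and 0.697, and in batch 2 every labelled knockout lies to the left of WT.

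For reuptake and breakdown the differences under CoCl2 were small. SLC6A2 was at 211 and 206 CPM in H2O, 187 and 183 CPM at 10 µM and 185 and 189 CPM at 50 µM. All CoCl2 libraries lay below both H2O libraries and the doses overlapped. The log2FC was -0.17 (SE 0.02, adjusted p 5.28e-11) at 10 µM and -0.16 (SE 0.02, adjusted p 2.05e-10) at 50 µM, with 0.01 between the doses (adjusted p 0.644).

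MAOA, at low counts, was at 7.67 and 8.50 CPM in H2O, 7.09 and 7.49 CPM at 10 µM and 9.09 and 8.45 CPM at 50 µM. Its 50 µM libraries overlapped those in H2O. The log2FC was -0.15 (95% interval -0.32 to 0.03, adjusted p 0.252) at 10 µM and 0.11 (95% interval -0.06 to 0.29, adjusted p 0.260) at 50 µM. The direct difference between the doses was called (0.26, adjusted p 0.0114), but not in DESeq2 (0.123), in the fit of all 14 libraries (0.125), or without 10 µM replicate 1 (0.0779) or 50 µM replicate 1 (0.113). Between the doses, 6 of the 9 genes were called, where 52.8% of all tested genes were (26.2% higher, 26.5% lower).

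**Figure D3:**
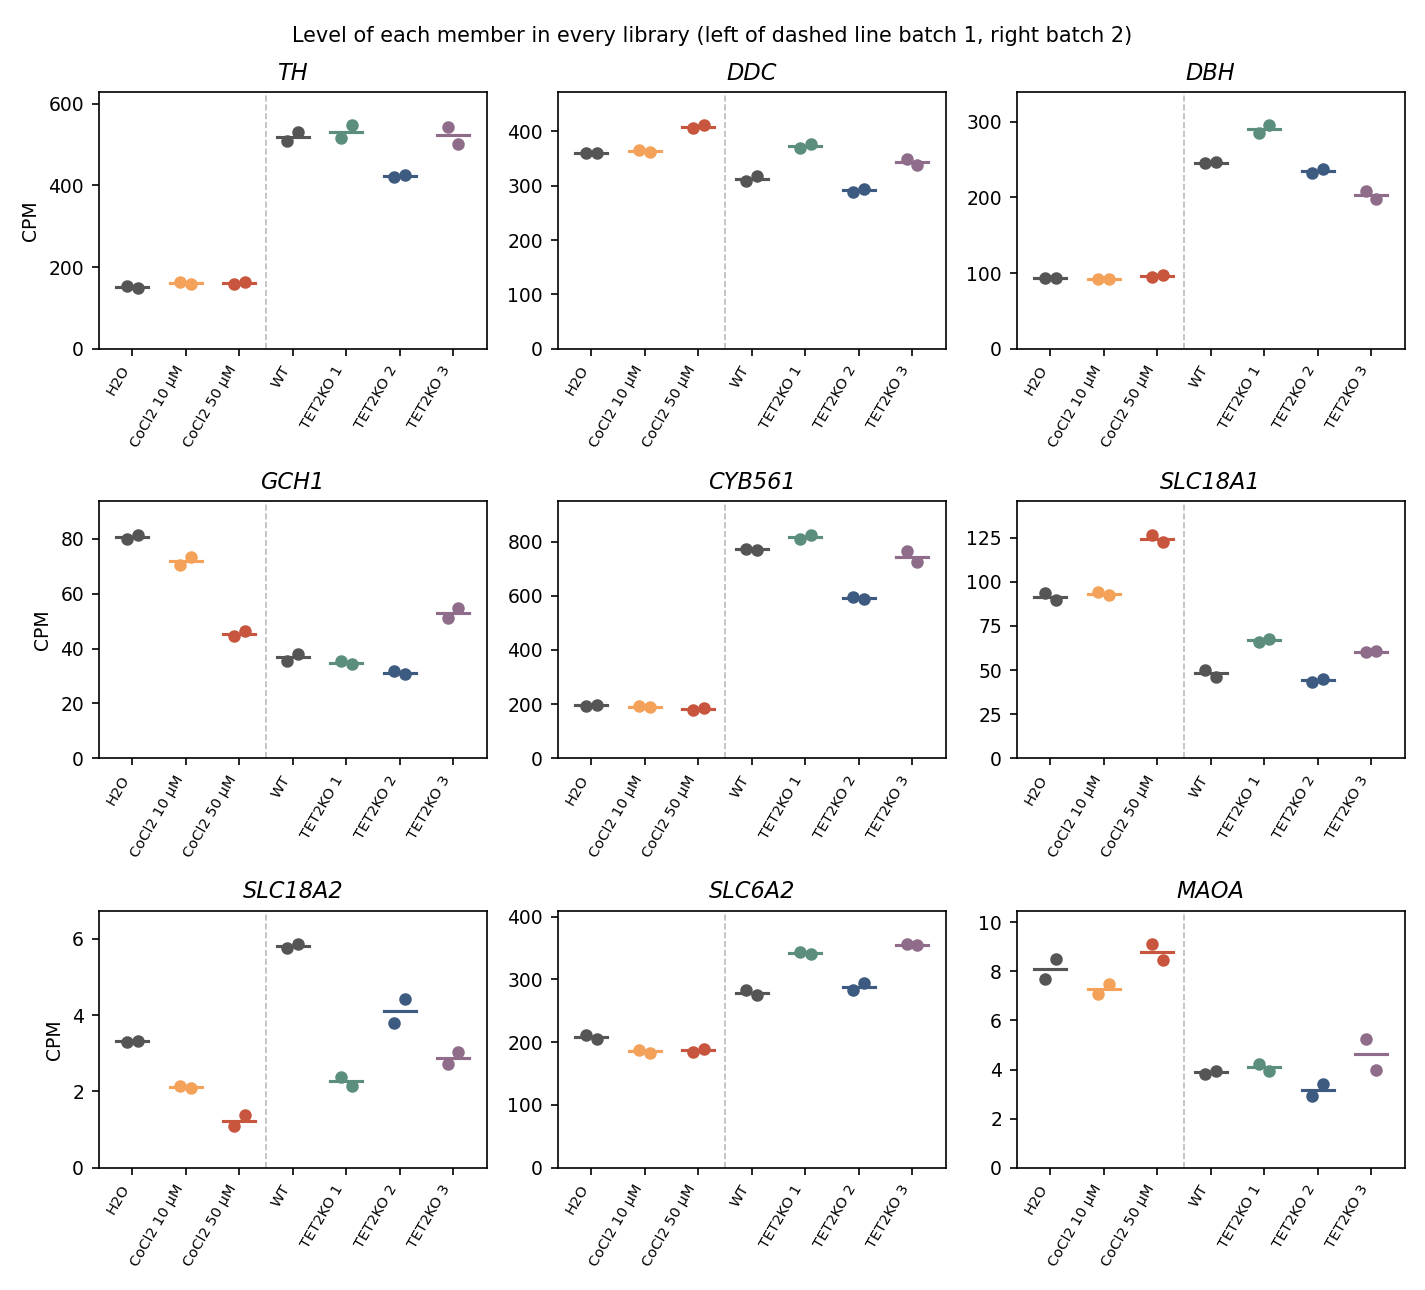
CPM of each of the 9 genes in every library (points) with the group mean (line), on linear axes that start at 0. Batch 1 is left of the dashed line and batch 2 right of it. GCH1 and SLC18A2 step down with CoCl2, and SLC18A2 is below WT in all 6 labelled knockout libraries.

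Against WT, 1 of the 9 genes was called in the same direction in all 3 labelled knockouts: SLC18A2 was lower in each. The share of all tested genes called alike in all 3 was not counted, so this number cannot be read as few or many. TET2KO 1 had 6 of 9 genes called (5 higher, 1 lower), where 17.5% of all tested genes were called (7.79% higher, 9.72% lower). TET2KO 2 had 5 called, all lower, where 26.3% were called (12% higher, 14.3% lower). TET2KO 3 had 6 called (4 higher, 2 lower), where 18.9% were called (8.90% higher, 9.96% lower). The median log2FC of the 9 genes was 0.08, -0.23 and 0.14 in TET2KO 1, 2 and 3, against -0.0013, 0.0007 and -0.0005 for all tested genes. The 3 comparisons share the WT libraries.

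**Figure D4:**
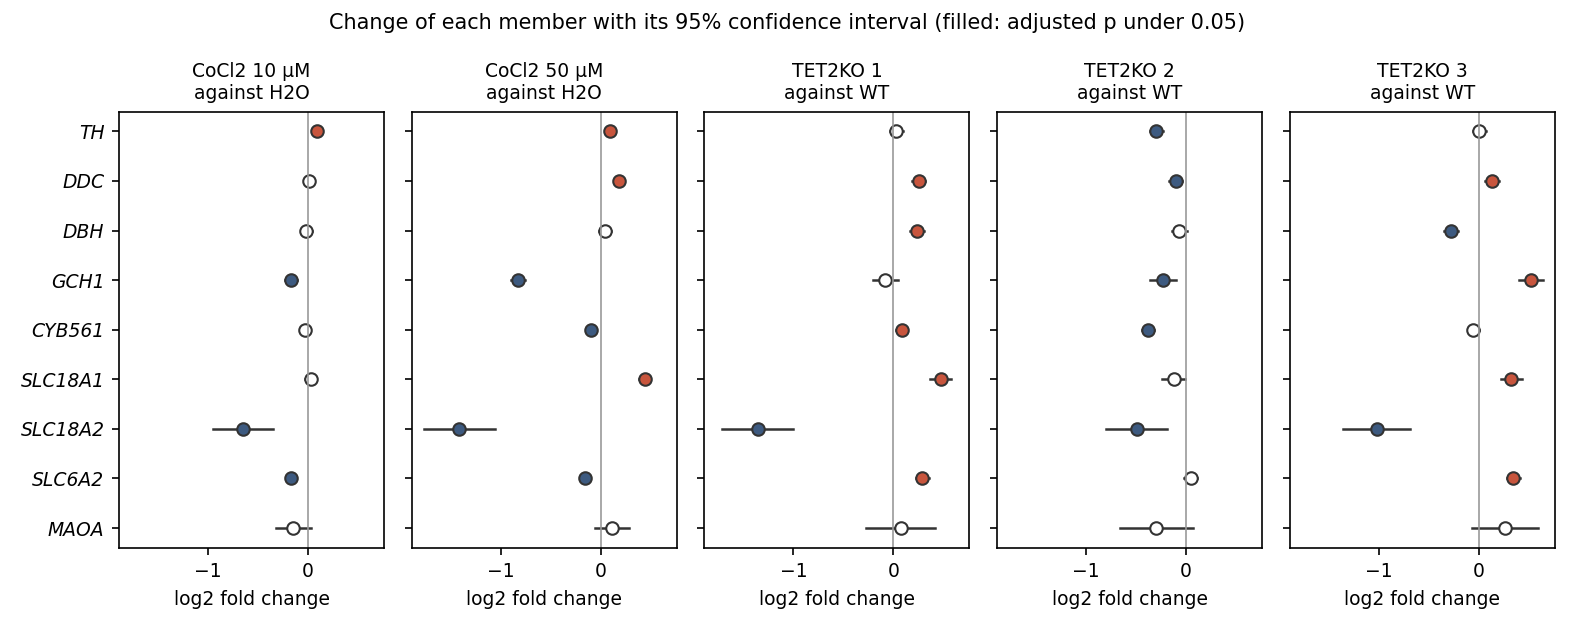
Log2FC of each gene with its 95% confidence interval (lines) in the 5 comparisons with a control. Filled points were called at an adjusted p under 0.05, red for higher and blue for lower. SLC18A2 is left of 0 in all 5 panels, and TET2KO 2 has no filled point to the right of 0.

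TH was at 508 and 532 CPM in WT, 516 and 547 CPM in TET2KO 1, 420 and 425 CPM in TET2KO 2 and 544 and 502 CPM in TET2KO 3. Only TET2KO 2 stood apart, below all other libraries of the batch. TH fell by 0.30 on the log2 scale in TET2KO 2 (SE 0.03, adjusted p 5.32e-15), and the log2FC was 0.03 in TET2KO 1 (95% interval -0.03 to 0.10, adjusted p 0.567) and 0.01 in TET2KO 3 (95% interval -0.05 to 0.07, adjusted p 0.886).

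DDC was at 309 and 317 CPM in WT, 369 and 377 CPM in TET2KO 1, 289 and 294 CPM in TET2KO 2 and 349 and 339 CPM in TET2KO 3. No 2 of these groups overlapped. DDC was higher in TET2KO 1 (log2FC 0.25, SE 0.03, adjusted p 6.21e-11) and TET2KO 3 (0.14, adjusted p 0.000947) and lower in TET2KO 2 (-0.10, adjusted p 0.0144). The last call was lost without WT replicate 2 (0.115), TET2KO 2 replicate 1 (0.151) or TET2KO 2 replicate 2 (0.0529).

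DBH was at 245 and 247 CPM in WT, 285 and 295 CPM in TET2KO 1, 233 and 238 CPM in TET2KO 2 and 208 and 197 CPM in TET2KO 3. TET2KO 1 lay above WT and TET2KO 3 below it. The log2FC was 0.24 in TET2KO 1 (SE 0.04, adjusted p 6.82e-09), -0.06 in TET2KO 2 (95% interval -0.13 to 0.01, adjusted p 0.186) and -0.28 in TET2KO 3 (SE 0.04, adjusted p 2.89e-11). DBH was the only 1 of the 3 synthesis enzymes to be lower in TET2KO 3, and the direct comparison of TET2KO 3 with TET2KO 1 gave -0.52 (adjusted p 1.60e-30). Of the counted DBH exon, 118 bases (4.3%) overlap the antisense gene DBH-AS1, whose reads the counting could not separate.

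GCH1 was at 35.5 and 38.0 CPM in WT, 35.4 and 34.3 CPM in TET2KO 1, 31.8 and 30.6 CPM in TET2KO 2 and 51.1 and 54.7 CPM in TET2KO 3. TET2KO 3 was the high group, and TET2KO 2 the low one. GCH1 rose in TET2KO 3 (log2FC 0.52, SE 0.06, adjusted p 6.48e-14), fell in TET2KO 2 (-0.23, SE 0.07, adjusted p 0.00331), and in TET2KO 1 the log2FC was -0.08 (adjusted p 0.467). The TET2KO 2 call was lost without WT replicate 2 (0.0808) or TET2KO 2 replicate 2 (0.0631).

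CYB561 was at 773 and 769 CPM in WT, 809 and 825 CPM in TET2KO 1, 596 and 588 CPM in TET2KO 2 and 764 and 724 CPM in TET2KO 3. As with TH, TET2KO 2 lay below all other libraries. CYB561 fell by 0.38 on the log2 scale in TET2KO 2 (SE 0.03, adjusted p 1.00e-25), and the log2FC was -0.05 in TET2KO 3 (adjusted p 0.246). The small rise in TET2KO 1 (0.08, adjusted p 0.0390) was lost when any of the 4 libraries was left out (0.0652 to 0.265).

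SLC18A1 was at 49.9 and 46.3 CPM in WT, 66.0 and 67.7 CPM in TET2KO 1, 43.4 and 45.1 CPM in TET2KO 2 and 60.3 and 60.6 CPM in TET2KO 3. TET2KO 1 and 3 lay above WT, and TET2KO 2 just below it. SLC18A1 rose in TET2KO 1 (log2FC 0.47, SE 0.05, adjusted p 7.40e-14) and TET2KO 3 (0.33, SE 0.06, adjusted p 3.66e-07), and in TET2KO 2 the log2FC was -0.12 (95% interval -0.24 to -0.01, adjusted p 0.118).

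SLC18A2 was counted 316 and 328 times in WT, 125 and 122 times in TET2KO 1, 212 and 245 times in TET2KO 2 and 159 and 155 times in TET2KO 3. In CPM these were 5.75 and 5.85 in WT, 2.38 and 2.15 in TET2KO 1, 3.80 and 4.43 in TET2KO 2 and 2.72 and 3.02 in TET2KO 3. Every labelled knockout library was below both WT libraries, and the 3 knockouts did not overlap each other. The direct test did not call a difference between TET2KO 3 and TET2KO 1 (log2FC 0.34, 95% interval -0.09 to 0.76, adjusted p 0.392). SLC18A2 fell by 1.36 (SE 0.18, adjusted p 1.04e-10), 0.49 (SE 0.16, adjusted p 0.0101) and 1.02 (SE 0.17, adjusted p 3.40e-07) on the log2 scale in TET2KO 1, 2 and 3. The TET2KO 2 call was lost without WT replicate 2 (0.0546) or TET2KO 2 replicate 1 (0.162). The share of tested genes with a larger absolute change was 2.65%, 12.9% and 4.54%. The ratio of SLC18A1 to SLC18A2 per unshared kilobase was 4.37 and 3.99 in WT, 13.97 and 15.8 in TET2KO 1, 5.75 and 5.12 in TET2KO 2 and 11.2 and 10.1 in TET2KO 3.

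SLC6A2 was at 283 and 275 CPM in WT, 343 and 340 CPM in TET2KO 1, 284 and 294 CPM in TET2KO 2 and 356 and 355 CPM in TET2KO 3. TET2KO 1 and 3 were the high groups, as for DDC and SLC18A1. SLC6A2 rose in TET2KO 1 (log2FC 0.29, SE 0.03, adjusted p 1.25e-13) and TET2KO 3 (0.35, SE 0.03, adjusted p 1.40e-18), and in TET2KO 2 the log2FC was 0.05 (adjusted p 0.322). A further gene model on the same strand, not among the genes counted here, covers 977 bases (17.9%) of its counted exon.

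MAOA was at 3.84 and 3.92 CPM in WT, 4.22 and 3.96 CPM in TET2KO 1, 2.91 and 3.42 CPM in TET2KO 2 and 5.26 and 3.98 CPM in TET2KO 3. The spread in TET2KO 3 was the widest of the 4 groups. No comparison with WT was called. The log2FC was 0.07 (95% interval -0.27 to 0.42, adjusted p 0.835), -0.30 (-0.66 to 0.07, adjusted p 0.249) and 0.26 (-0.07 to 0.60, adjusted p 0.300) in TET2KO 1, 2 and 3.

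The labelled knockouts were also tested against each other. One F-test of the difference among the 3 called all 9 genes, where 37.6% of all tested genes were called. Taken in pairs, 26.5% of all tested genes were called between TET2KO 2 and 1, 34.2% between TET2KO 3 and 2, and 8.3% between TET2KO 3 and 1. TET2KO 2 was below TET2KO 1 for TH (-0.33, adjusted p 1.46e-17), DDC (-0.36, adjusted p 2.17e-19), DBH, CYB561, SLC18A1 (-0.60, adjusted p 8.00e-20) and SLC6A2, and above it for SLC18A2 (0.86, adjusted p 0.000186). GCH1 and MAOA were not called in that pair. TET2KO 3 was above TET2KO 2 for 7 genes, GCH1 with the largest difference (0.76, adjusted p 1.55e-24), and below it for DBH (-0.21, adjusted p 1.93e-07) and SLC18A2 (-0.53, adjusted p 0.0184). TET2KO 3 and TET2KO 1 differed in DDC (-0.12, adjusted p 0.0113), DBH, GCH1 (0.60, adjusted p 1.93e-16) and CYB561 (-0.13, adjusted p 0.000624). For TH their difference was -0.02 (adjusted p 0.766) and for SLC6A2 0.06 (adjusted p 0.331). SLC18A2 (0.34, adjusted p 0.392), SLC18A1 (-0.15, adjusted p 0.0662) and MAOA (0.19, adjusted p 0.578) were not called in this pair either. Taken as an average that weights each number alike, 6 of the 9 differed from WT (SLC18A1, SLC6A2 and DDC higher, SLC18A2, TH and CYB561 lower), where 18.9% of all tested genes were called (7.54% higher, 11.4% lower). Behind its average, TH had a log2FC of -0.30 in TET2KO 2 and of 0.03 and 0.01 in TET2KO 1 and 3. Its call was lost without WT replicate 2 (adjusted p 0.334), TET2KO 1 replicate 1 (adjusted p 0.0593) or TET2KO 3 replicate 2 (adjusted p 0.0526), and under DESeq2 (adjusted p 0.0509). The DDC call was lost without WT replicate 1 (adjusted p 0.191). With all 6 knockout libraries under 1 coefficient the same edgeR test called 0 of 9 (and 1.82% of all tested genes), with 2 of the 9 at an unadjusted p under 0.05 and an adjusted p of 0.0664 for SLC18A2.

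Marker sums moved beside these changes, and their part in them was not tested. Beside the marker counts below, 30.4% of all tested genes were higher and 31.1% lower at 50 µM. In TET2KO 1, 2 and 3, 7.79%, 12% and 8.90% of all tested genes were higher and 9.72%, 14.3% and 9.96% lower. The summed level of the 9 sympathoadrenal markers, which include MYCN and the granule proteins CHGA and CHGB, was 11660 to 11690 CPM in H2O. It was 10320 to 10390 CPM at 50 µM, with 4 of 8 tested markers higher and 4 lower. At 10 µM it was above H2O, at 12300 to 12370 CPM, with 6 of 8 higher and 0 lower. There 11.6% of all tested genes were higher and 11.1% lower. In batch 2 it was 7939 to 8115 CPM in WT and 5967 to 6065 CPM in TET2KO 2, where 3 markers were higher and 3 lower and MYCN had a log2FC of -0.72. In TET2KO 1 it was 7639 to 7700 CPM and in TET2KO 3 7821 to 7970 CPM. The mesenchymal sum was 1246 to 1250 CPM in H2O and 1599 to 1618 CPM at 50 µM, where 2 of 5 tested markers were higher and 2 lower. Most of it was VIM, which averaged 1137 CPM in H2O and 1521 CPM at 50 µM. In batch 2 the mesenchymal sum was 1425 to 1444 CPM in WT and 959 to 1142 CPM in the labelled knockouts. There 2, 0 and 1 of 6 tested markers were higher and 3, 4 and 3 lower in TET2KO 1, 2 and 3. VIM averaged 839 CPM in WT and 890.5, 879 and 798 CPM in TET2KO 1, 2 and 3. FN1 averaged 316 CPM in WT and 57.65, 134 and 54.5 CPM in the same order, and COL3A1 155, 14.8, 27.5 and 12.9 CPM. COL1A2 had 7 counts in all 14 libraries together. The chromaffin sum was 5.32 to 6.31 CPM in H2O and 0.924 to 0.992 CPM at 50 µM, with both tested markers of the 3 listed lower and PENK at 15 counts in all. The endothelial sum was 10.0 to 10.7 CPM in WT and 1.2 to 2.93 CPM in the labelled knockouts, with 3 of 4 markers lower in each. In batch 1 it was 1.02 to 1.16 CPM in H2O and 0.504 to 0.512 CPM at 50 µM, with 1 of 2 tested markers lower. The sum of 5 Schwann and glial markers was 4.94 to 5.32 CPM in H2O and 3.25 to 3.49 CPM at 50 µM, with 1 of 2 tested markers lower. In batch 2 it was 11.1 to 11.9 CPM in WT, 5.02 to 5.92 CPM in TET2KO 2 and 7.21 to 8.18 CPM in TET2KO 1 and 3, with 1 of 3 tested markers lower in each and 1 higher in TET2KO 1 and 2. In bulk RNA of a cell line, fewer cells expressing a marker and less marker RNA per cell cannot be told apart.

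Tetrahydrobiopterin is made and recycled by further enzymes, of which 7 were listed. At 50 µM, 2 were higher and 3 lower among 7 tested, where 61.4% of all tested genes were called. QDPR, which regenerates the cofactor after each hydroxylation, rose by 0.19 (adjusted p 2.91e-12) on the log2 scale and PCBD2 by 0.29 (adjusted p 2.57e-05), while PCBD1, also of the recycling arm, fell by 0.22 (adjusted p 8.50e-08). The list had a median log2FC of 0.05. In the labelled knockouts QDPR was lower in all 3, with log2FC of -0.19 (adjusted p 0.000193), -0.36 (adjusted p 5.74e-13) and -0.14 (adjusted p 0.0129) in TET2KO 1, 2 and 3. PTS, which acts just after GCH1, fell by 0.33 in TET2KO 1 (adjusted p 0.000271) and PCBD2 rose by 0.26 in TET2KO 2 (adjusted p 0.0166). Those 3 knockouts each had 2 of 6 tested genes called, where 17.5%, 26.3% and 18.9% of all tested genes were called.

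Of 11 other breakdown enzymes, 6 were tested in batch 1 and all 6 were lower at 50 µM, by small amounts, where 31.1% of all tested genes were lower. Among the aldehyde dehydrogenases, ALDH9A1 had a log2FC of -0.11 (adjusted p 0.000977) and ALDH3A2 of -0.12 (adjusted p 0.00671). In batch 2, where 8 were tested, AKR1A1, an aldehyde reductase, was lower in TET2KO 2 (-0.18, adjusted p 0.00180) and higher in TET2KO 3 (0.15, adjusted p 0.0120), and AKR1B1 was higher in TET2KO 3 (0.11, adjusted p 0.0298). MAOB, the other monoamine oxidase, had 25 counts in all 14 libraries together.

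Copper, ascorbate and vitamin B6 supply was covered by 10 genes. At 50 µM, 4 of 9 tested were called, all higher, where 61.4% of all tested genes were called (30.4% higher). ATP7A, the copper pump that loads DBH, rose by 0.64 on the log2 scale at 50 µM (SE 0.02, adjusted p 7.99e-58), from 117 ± 2.53 to 183 ± 6.54 CPM, and the copper importer SLC31A1 rose by 0.21 (adjusted p 1.51e-12). PDXK, which activates vitamin B6, rose by 0.23 (adjusted p 8.06e-11). SLC31A1 was also higher in all 3 labelled knockouts, by 0.39 (adjusted p 2.80e-15), 0.21 (adjusted p 1.64e-05) and 0.25 (adjusted p 5.31e-07), and ATP7A was higher in TET2KO 1 (0.30, adjusted p 4.41e-08). SLC23A2, an ascorbate transporter, fell by 0.32 in TET2KO 2 (adjusted p 1.75e-08). CYB561D2, a relative of CYB561, rose by 0.45 in TET2KO 3 (adjusted p 0.0101), and 11.9% of its counted exon is shared with TMEM115 on the opposite strand.

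Among 14 other monoamine genes, 7 were tested in each batch. SLC18A3, the vesicular acetylcholine transporter, rose from 1.27 ± 0.0599 to 3.41 ± 0.155 CPM at 50 µM (log2FC 1.42, SE 0.18, adjusted p 8.98e-13) and was higher in TET2KO 2 (0.72, adjusted p 3.04e-06). The low-affinity monoamine transporter SLC29A4 fell by 0.37 at 50 µM (adjusted p 2.56e-14), by 0.17 in TET2KO 1 (adjusted p 0.0283) and by 0.59 in TET2KO 2 (adjusted p 4.96e-16). SLC3A2 and SLC7A5 together form a carrier of large amino acids. SLC3A2 rose by 0.34 at 50 µM (adjusted p 3.22e-28) and by 0.12 in TET2KO 1 (adjusted p 0.0194), and SLC7A5 had a log2FC of 0.12 (adjusted p 0.00240), -0.09 (adjusted p 0.0289) and -0.09 (adjusted p 0.0379) in TET2KO 1, 2 and 3.

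Catecholamine receptors were mostly near the detection limit, with 6 of 14 tested in batch 1 and 7 in batch 2. At 50 µM the alpha-2 receptor genes went apart, ADRA2C falling from 16.0 ± 0.150 to 9.02 ± 0.0528 CPM (log2FC -0.83, adjusted p 3.64e-21) and ADRA2A rising from 1.51 ± 0.0679 to 3.11 ± 0.0412 CPM (1.04, adjusted p 6.40e-08). DRD2, a dopamine receptor, was at 21.8 ± 0.631 CPM per kilobase in H2O, above ADRA2C at 7.36 ± 0.0688, and fell by 0.24 at 50 µM (adjusted p 5.78e-12), by 0.23 in TET2KO 1 (adjusted p 0.00348) and by 0.25 in TET2KO 2 (adjusted p 0.000789). ADRA2A was higher in TET2KO 2 (0.95, adjusted p 3.27e-07). ADRA1D was lower in TET2KO 3 (-1.09, adjusted p 0.00335), at levels under 2 CPM.

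Of 17 transcription factors of adrenergic cells, 16 were tested. At 50 µM, 5 were higher and 8 lower, with a median log2FC of -0.14, where 30.4% and 31.1% of all tested genes were higher and lower. TBX2 rose by 0.92 (adjusted p 6.21e-50) and GATA3, a factor of sympathetic neurons, by 0.31 (adjusted p 1.90e-32), while TFAP2B fell by 0.38 (adjusted p 3.91e-46). In TET2KO 2, where TH and CYB561 were lowest, TFAP2B fell by 0.52 (adjusted p 6.19e-33), TBX2 rose by 1.09 (adjusted p 2.48e-56) and HAND1 rose by 0.66 (adjusted p 9.81e-32). In TET2KO 3, TFAP2B rose by 0.22 (adjusted p 3.52e-08) and HIF1A fell by 0.22 (adjusted p 1.08e-10). EPAS1, which encodes HIF-2 alpha, was at 20.9 ± 1.39 CPM in WT and fell by 1.88 in TET2KO 1 (adjusted p 5.64e-40), by 1.19 in TET2KO 2 (adjusted p 1.95e-24) and by 2.21 in TET2KO 3 (adjusted p 2.84e-46). In TET2KO 1, TBX2 rose by 0.40 (adjusted p 1.55e-11) and GATA3 by 0.28 (adjusted p 5.92e-11). The list had 6 higher and 2 lower in TET2KO 1, 6 and 3 in TET2KO 2, and 5 and 4 in TET2KO 3, beside the same 17.5%, 26.3% and 18.9%.

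Of 8 listed cholinergic genes, 6 were tested. These were the nicotinic receptor subunits CHRNA3, CHRNA5, CHRNA7 and CHRNB4, and ACHE and BCHE, which break down acetylcholine. At 50 µM, 3 of the 6 were called (2 higher, 1 lower), against 61.4% of all tested genes. CHRNB4, a nicotinic receptor subunit, fell by 0.42 (adjusted p 5.04e-18), and CHRNA3 and CHRNA7 rose by 0.11 (adjusted p 0.000174) and 0.17 (adjusted p 0.00249). CHRNA3, CHRNA5 and CHRNB4 were lower in all 3 labelled knockouts, which share the WT libraries, and 1 of the 6 was higher in TET2KO 2. Of all tested genes, 9.72%, 14.3% and 9.96% were lower in TET2KO 1, 2 and 3. In TET2KO 1 the 3 log2FC were -0.09, -0.14 and -0.12 (adjusted p 0.0377, 0.0404 and 0.0497), close to the threshold. The lowest log2FC was -0.38, for CHRNA5 in TET2KO 2 (adjusted p 1.19e-10). CHRNA3 and CHRNA5 share 198 exon bases on opposite strands. CHAT, which makes acetylcholine, had 82 counts in all 14 libraries together and SLC5A7, the choline transporter, 33, and neither was tested.

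The genes most like TH and DBH over the 5 comparisons with a control were found by the Euclidean distance between their log2FC, among 10127 genes at 5 CPM or more on average in each batch. The CoCl2 pair shares H2O and the knockout comparisons share WT. Closest to TH was SLC23A2, the ascorbate transporter above, at a distance of 0.04, with log2FC of 0.07, 0.09, 0.01, -0.32 and 0.03 at 10 µM, at 50 µM and in TET2KO 1, 2 and 3. MXI1 (0.08), C15orf39 (0.08), GPR155 (0.09) and SLC6A15 (0.09) followed. DBH had no such close match. EXOC6B came first at 0.17, with log2FC of -0.01, 0.06, 0.14, 0.03 and -0.18, followed by WBP1L (0.20), ADORA2B (0.20), SRGAP3 (0.21) and TEF (0.21).

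Positions are given in GRCh38 coordinates, from the first to the last counted base. TH lies on chromosome 11 from 2163929 to 2171877 (minus strand), DDC on chromosome 7 from 50458436 to 50565405 (minus) and DBH on chromosome 9 from 133636363 to 133659329 (plus). GCH1 lies on chromosome 14 from 54842008 to 54902826 (minus) and CYB561 on chromosome 17 from 63432304 to 63446354 (minus). SLC18A1 is on chromosome 8 (minus), SLC18A2 on chromosome 10 from 117241093 to 117279430 (plus), SLC6A2 on chromosome 16 from 55655604 to 55706192 (plus) and MAOA on chromosome X from 43654907 to 43746824 (plus). Counts were summed over all exons of each gene, so no transcript or UTR is resolved.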

How the data were processed

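RNA-seq counts of 14 libraries were used. Per the file headers, the deposited raw counts are featureCounts output (1.5.3 in batch 1, 2.0.5 in batch 2) for exons of the protein-coding part of GENCODE release 33, build GRCh38, run with the paired-end option and no strand option. The submitters' processing notes name Trimmomatic 0.36, STAR 2.6.1d and Subread 1.5.3. Between 77.3% and 80.5% of counts from 1 to 10 were even in batch 2, against 39.0% to 42.3% in batch 1, so batch 2 counts mostly stand for single reads. Replicate libraries differed by more than counting noise in each group, with a chi-square per gene of 1.23 to 1.47 in batch 1 and 3.86 to 5.52 in batch 2 (1.96 to 2.83 there after halving the counts), and were counted separately.

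Each batch was fitted apart in R 4.3.3 with edgeR 4.0.16 (filterByExpr, TMM, glmQLFit with robust = TRUE, glmQLFTest), giving each group its own coefficient. Batch 1 had 13636 testable genes and batch 2 had 14061. The dispersion was kept above 1e-04, since batch 1 gave 7.66e-05. Adjusted p-values are Benjamini-Hochberg over all tested genes. In counts simulated for 50 µM CoCl2 against H2O over 13636 genes, 85.4% to 89.8% of genes changed by 0.5 on the log2 scale and 96% to 98% of those changed by 1 were recovered. For TET2KO 1 against WT over 14061 genes these shares were 61.2% to 64% and 90% to 92%. The counts were drawn with the spread that the fit itself had estimated, so these shares do not test that estimate. They cover genes of all levels and are not specific to low counts such as those of SLC18A2 and MAOA.

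All 9 genes are named in every comparison. From each pathway list, the called genes with the 3 smallest adjusted p at 50 µM and in each labelled knockout are named, and for TH and DBH the 5 nearest genes. Some genes that meet this rule are not reported here. MYCN, VIM, FN1, COL3A1 and COL1A2 among the markers, EPAS1 in TET2KO 2, and the low counts of MAOB, CHAT and SLC5A7, were picked out after their values were seen. The members and lists were chosen with earlier results of these data known. Alternatives were DESeq2 1.42.0, RLE scaling, no gene filter, no dispersion floor, the legacy method, a fit of all 14 libraries, a replicate block, halved batch 2 counts, 1 coefficient for all knockout libraries and leaving out each library. The pairwise knockout tests and the length used for SLC18A2 were added after results had been seen.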

Additional observations from a re-analysis of the deposited data

Results flagged for a closer look

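Each of the 9 genes differed among the 3 labelled knockouts in a direct test of that difference (edgeR's quasi-likelihood F-test with Benjamini-Hochberg adjustment), which called 37.6% of all tested genes. The spread below is the distance between the highest and the lowest log2 fold change against WT. SLC18A2 had the widest spread, 0.86 (adjusted p 0.000397), lowest in TET2KO 1 and nearest to WT in TET2KO 2. GCH1 followed with 0.76 (adjusted p 1.76e-26), with TET2KO 3 above WT and TET2KO 2 below it. SLC18A1 spread over 0.60 (adjusted p 4.63e-20), DBH over 0.52 (adjusted p 7.11e-31) and CYB561 over 0.46 (adjusted p 1.96e-34). MAOA spread over 0.56 at low counts (adjusted p 0.0219), a call lost in DESeq2 (0.0628) and without TET2KO 2 replicate 1 (0.251) or TET2KO 3 replicate 1 (0.21). DDC spread over 0.36 (adjusted p 4.24e-19), TH over 0.33 (adjusted p 8.43e-20) and SLC6A2 over 0.30 (adjusted p 3.07e-15). In TH, DDC, CYB561, SLC18A1, SLC6A2 and MAOA the lowest of the 3 was TET2KO 2, and in DBH it was TET2KO 3.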

How the results depend on the processing

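The number of the 9 genes called stayed within 1.5 times in 95 of 100 alternative counts, and 846 of 900 single values kept their direction and their side of the threshold. RLE scaling, the legacy method, no dispersion floor and halved batch 2 counts changed no call of a member. DESeq2 called 2 members at 10 µM in place of 4, and 1 coefficient for all 6 knockout libraries called 0 in place of 6. Leaving out a library gave 2 to 5 members called in TET2KO 2, against 5, with 2 without WT replicate 2 and 3 without either TET2KO 2 library. Per kilobase of all exon bases, shared ones included, SLC18A2 was at 0.803 CPM in H2O, 0.512 and 0.298 at 10 and 50 µM, 1.41 in WT and 0.549, 0.998 and 0.696 in TET2KO 1, 2 and 3, since the longer length divides the same counts. The cause of the other shifts was not tested.

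Values that changed sign were all uncalled and near 0. Between the doses, TH was at -0.0054 without a gene filter, -0.0022 in the fit of all libraries, and -0.0265 to 0.0247 with a library left out (-0.0258 without 10 µM replicate 2, -0.0265 without 50 µM replicate 2), and SLC6A2 at -0.0045 to 0.0287 (-0.0036 and -0.0045 without the same libraries). SLC18A1 at 10 µM ranged from -0.0056, without H2O replicate 2, to 0.0562. TH ranged from -0.0098 (without the second library) to 0.0745 in TET2KO 1, and from -0.0474 (without the first library; -0.0223 without WT replicate 1) to 0.0692 in TET2KO 3. The knockout average of MAOA ranged from -0.0624 to 0.0728 and was at -0.0028, -0.0014, -0.0269 and -0.0624 without WT replicate 1, TET2KO 1 replicate 1, TET2KO 2 replicate 2 and TET2KO 3 replicate 1.

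With the replicate number as a block, CYB561 in TET2KO 1 was no longer called (0.08, adjusted p 0.0611), and the other 71 values kept their call. Deviations of same-numbered libraries correlated at -0.04 to 0.07 over all tested genes. Counting noise of low genes weakens such a correlation, so it cannot decide whether the numbers pair the samples. In the fit of all 14 libraries SLC18A1 in TET2KO 2 was called (adjusted p 0.0449). Precision is limited by 2 libraries per group and, for SLC18A2 and MAOA, by low counts.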
